A study of Mus musculus with 87 samples.

Results

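The core genes of the mammalian circadian clock were followed in the mouse liver after partial hepatectomy (PH). They are Arntl, Clock, Npas2, Per1, Per2, Per3, Cry1, Cry2, Nr1d1 and Nr1d2, chosen by name as 10 of the 37991 genes of the deposited table. Transcript abundance was measured by sequencing the poly(A) RNA of each liver on its own, and the deposited values are log2 RPKM (reads per kilobase of exon, scaled to the mapped reads of the library), so levels can be compared between genes as well as between samples. All 10 genes passed the detection threshold of −1.5 log2 RPKM in at least 1 of the 80 libraries analysed. Clock, Cry1, Cry2 and Nr1d2 passed it in all 80, Npas2 in 55 and Per3 in 23.

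The livers came from male C57BL/6 mice with no genetic change, aged 12 to 14 weeks at surgery, so those killed at weeks 1 and 4 were older. All mice, untreated controls included, lived in alternating light and dark and had food only in the dark phase. Zeitgeber time (ZT) counts hours from lights on, with lights off at ZT12, and surgery was at ZT2. Untreated groups are called C, sham-operated groups S (the abdomen was opened under isoflurane and the liver left whole) and PH groups X, each followed by the hours after surgery or by weeks (W). Untreated livers were taken at ZT2 (C0, n = 9), at ZT6 (C4, n = 3) and at 4 weeks (C4W, n = 2). Sham livers were S1 (n = 6), S4 (n = 5), S10 (n = 3), S20 (n = 3) and S48 (n = 3). PH livers were X1 (n = 6), X4 (n = 3), X10 (n = 6), X20 (n = 6), X28 (n = 3), X36 (n = 6), X44 (n = 3), X48 (n = 5), X72 (n = 3), X1W (n = 3) and X4W (n = 2). Every mouse was killed once, so a time course joins different animals. ZT6 was sampled in C4, S4, X4 and X28, ZT22 in S20, X20 and X44, and ZT2 in C0, S48, X48 and X72. The livers killed at weeks 1 and 4 are taken as ZT2.

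The clock is a loop in which transcription factors switch on their own inhibitors. ARNTL (also called BMAL1) pairs with CLOCK or with its close relative NPAS2 and binds E-box elements. This pair drives the Per and Cry genes, whose proteins return to the nucleus and block it, and it drives Nr1d1 and Nr1d2 (REV-ERB alpha and beta), which repress Arntl, Clock and Npas2. The Per genes also respond to the PAR bZIP factors DBP, TEF and HLF at D-box elements, and Per1 is an immediate target of the glucocorticoid receptor and of cAMP signalling. In the liver, feeding time is a strong setting signal for this loop.

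The promoters place these inputs beside the transcripts described here. The 250 bases before the transcription start were searched on both strands for the E-box CACGTG, the D-box TTATGNAA, the cAMP element TGACGTCA and the core of the REV-ERB and ROR element TAGGTCA. RefSeq windows (GRCm38.p6) were at hand for 9 of the 10 genes, in 13 windows since some genes have several starts, and Per2 was not among them. Matches were found in Per1, Cry1 and Per3. The window of Per1 (chr11:69098699-69098948, plus strand, the only one of its starts with a match) holds an E-box that begins 166 bases before the start and a D-box that begins 24 bases before it. The window of Cry1 (chr10:85185055-85185304, minus strand) holds an E-box at −60. The window of Per3 (chr4:151044666-151044915, minus strand) holds a D-box at −205 and another at −158. The E-box occurs in 6.02% of all 32851 promoter windows of this length, the D-box in 3.07%, the cAMP element in 1.55% and the TAGGTCA core in 2.23%, and the latter pair occurred in no window of the 9 genes. A match describes letters and not a bound site. The windows are shown 5′ to 3′ on the strand of the gene, with the matches in capitals, because the comparisons below single out Per1 and Per3, and Cry1 carries the E-box without a D-box.
Per1: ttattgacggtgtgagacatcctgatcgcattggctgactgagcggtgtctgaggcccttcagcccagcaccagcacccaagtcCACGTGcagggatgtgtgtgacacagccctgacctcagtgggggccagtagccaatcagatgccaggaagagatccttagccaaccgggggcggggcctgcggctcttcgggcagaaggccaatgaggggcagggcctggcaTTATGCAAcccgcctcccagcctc
Cry1: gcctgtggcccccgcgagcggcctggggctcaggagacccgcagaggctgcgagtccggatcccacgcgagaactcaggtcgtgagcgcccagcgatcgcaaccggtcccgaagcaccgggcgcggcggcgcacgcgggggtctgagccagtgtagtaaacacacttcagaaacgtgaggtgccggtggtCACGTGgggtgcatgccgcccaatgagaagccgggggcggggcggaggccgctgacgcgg
Per3: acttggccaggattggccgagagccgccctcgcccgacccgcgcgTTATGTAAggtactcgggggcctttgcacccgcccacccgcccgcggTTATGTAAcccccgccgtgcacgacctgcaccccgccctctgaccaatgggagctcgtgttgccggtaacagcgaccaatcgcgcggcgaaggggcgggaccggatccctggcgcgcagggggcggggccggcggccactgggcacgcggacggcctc

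The depth estimated from the RPKM values lay between 12.2 and 48.8 M reads (M, mega) with a median of 26.7, so the detection threshold stood for 27.6 reads on Arntl and 90.8 reads on Per3 at the median depth. In X28 replicate 2 only 37.0% of the low values came within 0.05 of a whole read, against at least 72.6% in each other library, and the fits over X28 were repeated without it. The 6 hepatocyte markers (Alb and Apoa1 among them) summed to between 46600 and 56100 RPKM in C0, where the 6 macrophage markers summed to between 8.11 and 125 RPKM, with the highest value in C0 replicate 8.

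The 9 C0 livers did not form a single group for Per1 and Nr1d1. Per1 stood at −4.58, −2.99 and −3.28 log2 RPKM in replicates 1 to 3, at 1.87, 1.63 and 1.65 in replicates 4 to 6 and at −1.53, −1.92 and −1.42 in replicates 7 to 9. These sets did not overlap. Nr1d1 went the other way in the middle set, with 2.50, 2.74 and 3.28, then −0.92, 0.06 and 0.55, then 2.14, 4.24 and 3.92. The study collected its C0 livers in separate experimental periods, but its text does not say which replicate numbers belong to which period. Group means were compared throughout on log2(RPKM + 0.25) with limma over 15396 genes, and a gene was called at a Benjamini-Hochberg adjusted p below 0.05 with a log2 difference beyond 0.5. Because of the pseudocount, these differences understate the change of low genes. Between C0 replicates 1 to 3 and 4 to 6, Per1 was lower by 3.38 (SE 0.32, adjusted p = 7.13e-12), that is a log2 difference of −3.38, and Nr1d1 was higher by 2.63 (SE 0.47, adjusted p = 0.000104). They were the 2 clock genes called there, where 5.02% of all genes were called. Clock, whose protein is the partner of ARNTL, separated the last set instead. It was 2.23, 2.51 and 2.25 in replicates 1 to 3, 2.34, 2.41 and 2.61 in replicates 4 to 6, and 1.49, 1.58 and 1.14 in replicates 7 to 9. Clock and Cry2 were called between the first and the last set (16.7% of all genes called), and Clock, Per1, Nr1d1 and Nr1d2 between the middle and the last set (17% of all genes called). Fkbp5 and Tsc22d3, which respond to glucocorticoid, were also highest in the middle set. Fkbp5 differed by −2.58 (adjusted p = 2.14e-07) and Tsc22d3 by −2.84 (adjusted p = 2.39e-10) between replicates 1 to 3 and 4 to 6, and by 3.72 (adjusted p = 3.63e-12) and 3.09 (adjusted p = 5.29e-12) between replicates 4 to 6 and 7 to 9. In the last set, 4 of the 6 macrophage markers and 2 of the 4 neutrophil markers were called higher than in the middle set. The part of these genes in the differences of Per1 and Nr1d1 was not tested. These divisions were made after the values were seen, and results that rest on C0 are given below with and without the sets.

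After PH, 7 of the 10 clock genes had a called 24-h rhythm, where 11.6% of all genes had, with Arntl and Nr1d1 among the widest. As described below, a daily rhythm and a course after surgery cannot be fully told apart in these fits. Arntl lay between 2.51 and 3.35 log2 RPKM in C0, fell to between −1.35 and 0.01 at 10 h (X10, ZT12), stood between 2.96 and 3.41 at 20 h (X20, ZT22), and reached its lowest group mean of −1.39 at 36 h (X36, ZT14). Nr1d1 ran against it, with a mean of 3.24 ± 0.22 (SD, n = 6) at 10 h, −0.81 ± 0.78 (n = 6) at 20 h, 4.5 ± 0.25 (n = 3) at 28 h and −1.06 ± 0.34 (n = 3) at 44 h. Npas2 had the widest range of group means, 7.18 log2 units between X1W and S10, and in PH livers it went from 0.87 ± 0.31 at 20 h (n = 6) to −5.15 ± 0.96 at 36 h (n = 6). Clock moved between group means of 1.41 (C4) and 3.11 (X48).

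Ordered by group mean, most neighbouring groups could not be separated by their libraries. Nr1d1 ran from 5.27 in C4 to −1.06 in X44, and 15 of the 18 pairs of neighbours in that order overlapped, the exceptions being C4 over X28, X28 over C4W and S48 over S20. Per1 ran from 2.99 in X1 to −2.76 in X4W with 17 of 18 pairs overlapping, and Per3 from 1.28 in S10 to −5.17 in X4 with 17 of 18. Per2 (2.90 in X36 to −2.30 in X4) and Nr1d2 (4.08 in S10 to 0.59 in X20) had all 18 pairs overlapping. The lowest groups of Per1, Per2 and Per3 named here lay below the detection threshold in all their libraries. Cry1 ran from 3.30 in X44 to 0.18 in X28 and Cry2 from 2.16 in S10 to −0.32 in X4.

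**Figure D1:**
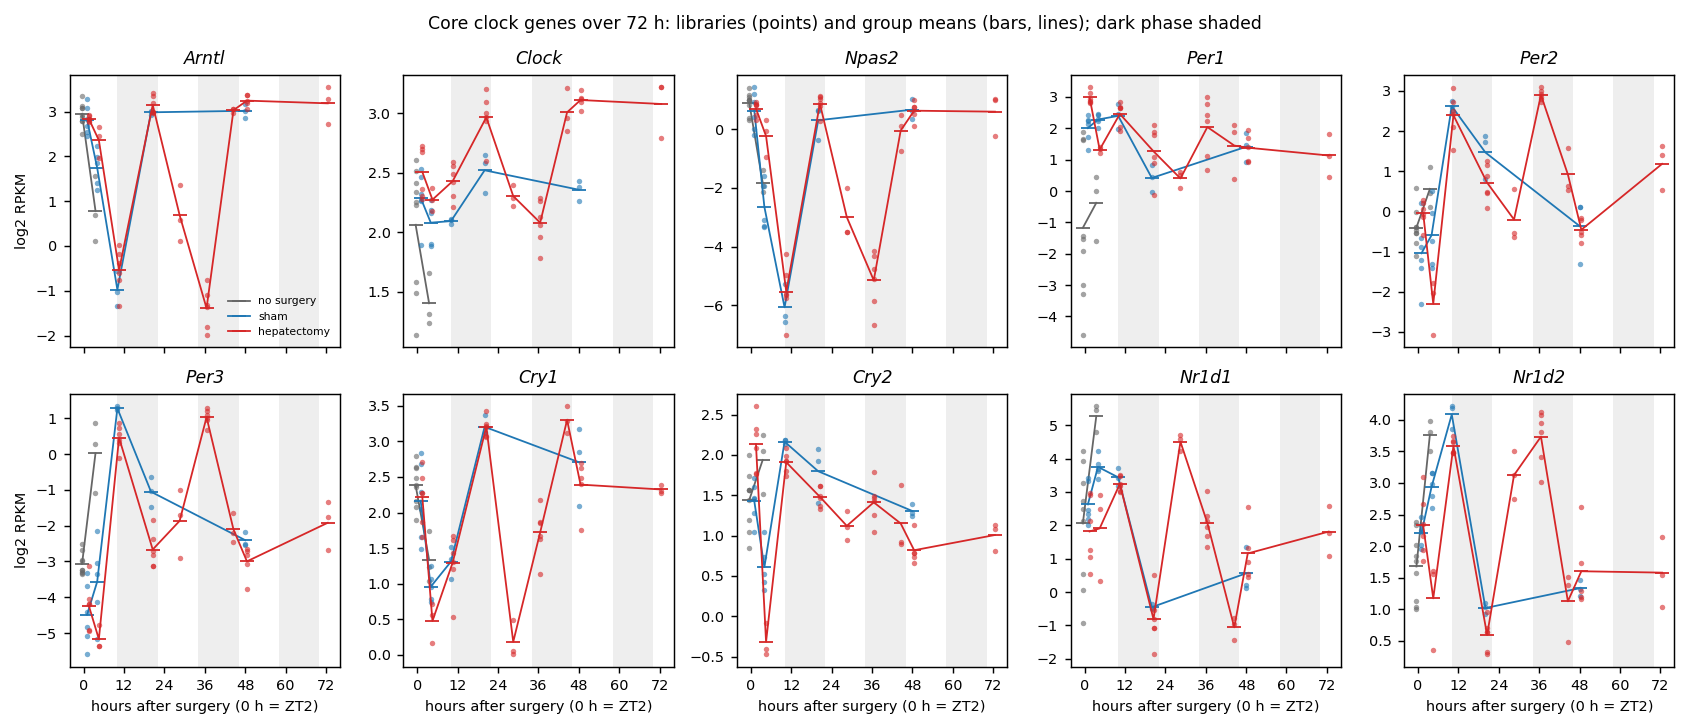
Transcript levels of the 10 clock genes (log2 RPKM, vertical axes of different range) against hours after surgery at ZT2, with each library as a point, group means as bars joined by lines, and the dark phase shaded. Arntl and Npas2 are low at 10 and 36 h, where Per2 and Per3 are high, and the grey C4 points of Nr1d1 and Per3 at 4 h lie above the blue sham and red PH points.

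A 24-h cosine curve was fitted to the PH livers from 1 to 72 h and, separately, to the sham livers from 1 to 48 h, and a rhythm was called at an adjusted p below 0.05 with a fitted peak-to-trough difference beyond 1 log2 unit. In sham livers each hour of the day was sampled at a single time after surgery. In PH livers only ZT2, ZT6 and ZT22 were sampled at more than 1 such time. A daily rhythm and a course after surgery thus cannot be fully told apart in these fits. In PH livers 7 of the 10 genes were called, where 11.6% of all genes were. In sham livers 9 were called, where 23.2% of all genes were. The order of the peaks in PH livers was Nr1d1 at ZT8.7 with a peak-to-trough difference of 4.31 (SE 0.43), Nr1d2 at ZT11.1 with 2.55 (SE 0.29), Per3 at ZT14.2 with 2.63 (SE 0.17), Per2 at ZT15.7 with 3.01 (SE 0.30), Cry1 at ZT20.6 with 2.79 (SE 0.20), Npas2 at ZT0.1 with 3.04 (SE 0.19) and Arntl at ZT0.4 with 3.88 (SE 0.18). The fitted peaks of Nr1d1 and Nr1d2, which encode repressors, thus lay in the second part of the light phase. Those of Per2 and Per3 lay in the dark, that of Cry1 late in the dark, and those of the activators Npas2 and Arntl near lights on. No PH liver was sampled between ZT6 and ZT12. Among the fitted PH groups, the highest mean of Nr1d1 was 4.5 log2 RPKM in X28 (ZT6). That of Nr1d2 was 3.73 in X36 (ZT14), in the dark. Clock passed the p threshold with a difference of 0.85 (SE 0.12, adjusted p = 1.15e-06), short of the size required. The 2 genes of the loop with no called rhythm for lack of a p below the threshold were Per1, at 0.53 (SE 0.35, adjusted p = 0.362), and Cry2, at 0.51 (SE 0.29, adjusted p = 0.247). With the C0 libraries added at ZT2, Per1 came to 1.19 (adjusted p = 0.0487) and was called, and Cry2 came to 0.45 (adjusted p = 0.283). Both were called in sham livers, Per1 with 2.03 (SE 0.29, adjusted p = 0.000106) and Cry2 with 1.52 (SE 0.29, adjusted p = 0.00124).

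Whether the curves differed between PH and sham was tested by an interaction at the 5 hours that both share (1, 4, 10, 20 and 48 h). No clock gene was called by limma's F test, where 1.04% of all genes were. At an unadjusted p below 0.05 in limma's F test there was 1, Per3, with a peak-to-trough difference of 3.68 in sham and 2.57 in PH livers and a peak at ZT15.4 in sham and ZT14.3 in PH (adjusted p = 0.0967). With a pseudocount of 1 in place of 0.25, 1 clock gene passed. For Per1 the fitted differences at these hours were 2.03 in sham and 1.05 in PH (adjusted p = 0.576), so the separate calls above do not show that its rhythm differed.

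**Figure D2:**
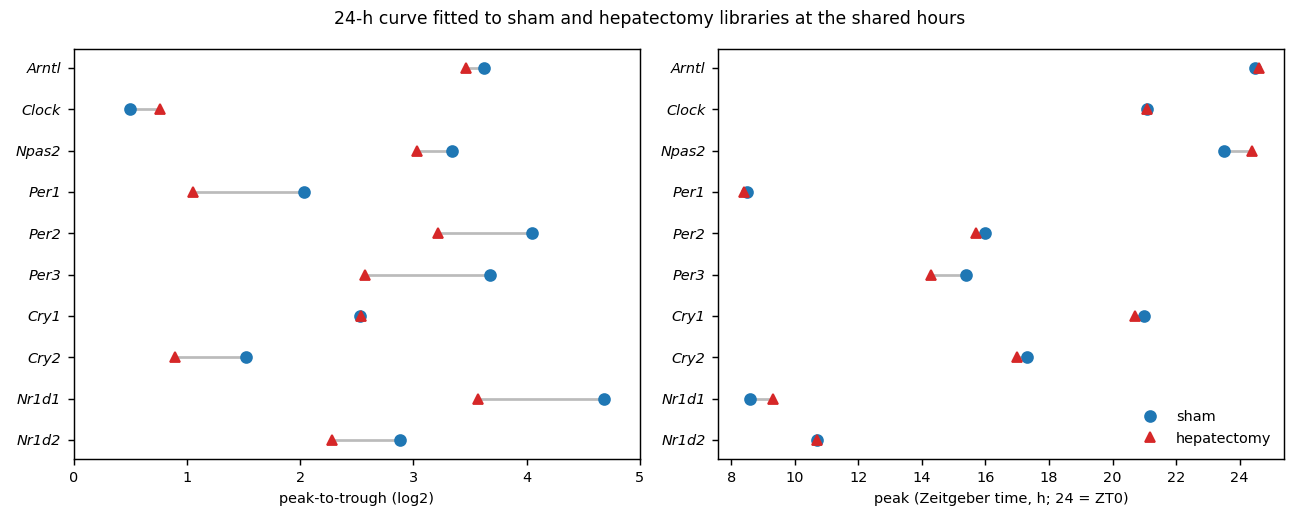
Fitted peak-to-trough difference in log2 units (left) and fitted hour of the peak in Zeitgeber time (right) for each clock gene, in sham livers (circles) and PH livers (triangles) at the 5 shared hours. Peaks lie within 1.1 h of each other in the 2 kinds of liver for all 10 genes, and 8 of the 10 genes have the smaller peak-to-trough difference after PH.

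Between the first day after PH (X1, X4, X10 and X20) and the second (X28, X36, X44 and X48), the fitted curves of Arntl, Clock, Per1 and Nr1d1 differed. These are 4 of 10 clock genes against 54.5% of all genes, so differences of this kind were not more common among the clock genes than in the table as a whole. The first day was sampled at ZT3, ZT6, ZT12 and ZT22, and the second at ZT6, ZT14, ZT22 and ZT2. A change between the days and the partly unlike hours cannot be told apart in these fits. Arntl had a peak-to-trough difference of 3.49 on the first day and 4.56 on the second (adjusted p = 0.00306), and Nr1d1 had 3.6 and 5.77 (adjusted p = 0.0444). The fitted peak of Per1 was at ZT7.2 on the first day and at ZT17.5 on the second (adjusted p = 0.0459). Without X28 replicate 2, 2 clock genes were called, and 2 were called without replicate 1 or without replicate 2 of all groups. Over 17 alternative settings Arntl and Clock lost the call in 0, Nr1d1 in 10 and Per1 in 5.

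At ZT6, 4 groups could be set side by side. Against C4, 8 of the 10 clock genes were called in S4 (43.3% of all genes called) and all 10 in X4 (45.6%). C4 was collected in another experimental period than the operated livers, so period and surgery cannot be told apart in comparisons with it. The libraries of S4 and C4 overlapped for Arntl, Npas2, Per2 and Cry1. Arntl was 0.69, 1.56 and 0.10 log2 RPKM in C4. It was between 1.24 and 2.23 in the 5 S4 livers and 2.65, 2.46 and 1.97 in X4, and it was back at 0.11, 0.58 and 1.37 in X28, which was killed at the same hour of the next day. All X4 values lay above all C4 and all X28 values. Relative to C4, the log2 difference of Arntl was 0.86 (SE 0.21, adjusted p = 0.000289) in S4, 1.44 (SE 0.23, adjusted p = 2.97e-07) in X4 and −0.08 in X28, with a 95% interval from −0.54 to 0.38. Npas2 was −1.95, −1.38 and −2.13 in C4 and 0.30, −0.05 and −0.95 in X4, a difference of 1.05 (SE 0.27, adjusted p = 0.000552), while S4 lay between −3.33 and −1.59 and X28 at −3.50, −3.51 and −1.99. Clock was higher than in C4 in all 3 operated groups, by 0.63 in S4, 0.81 in X4 and 0.84 in X28.

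**Figure D3:**
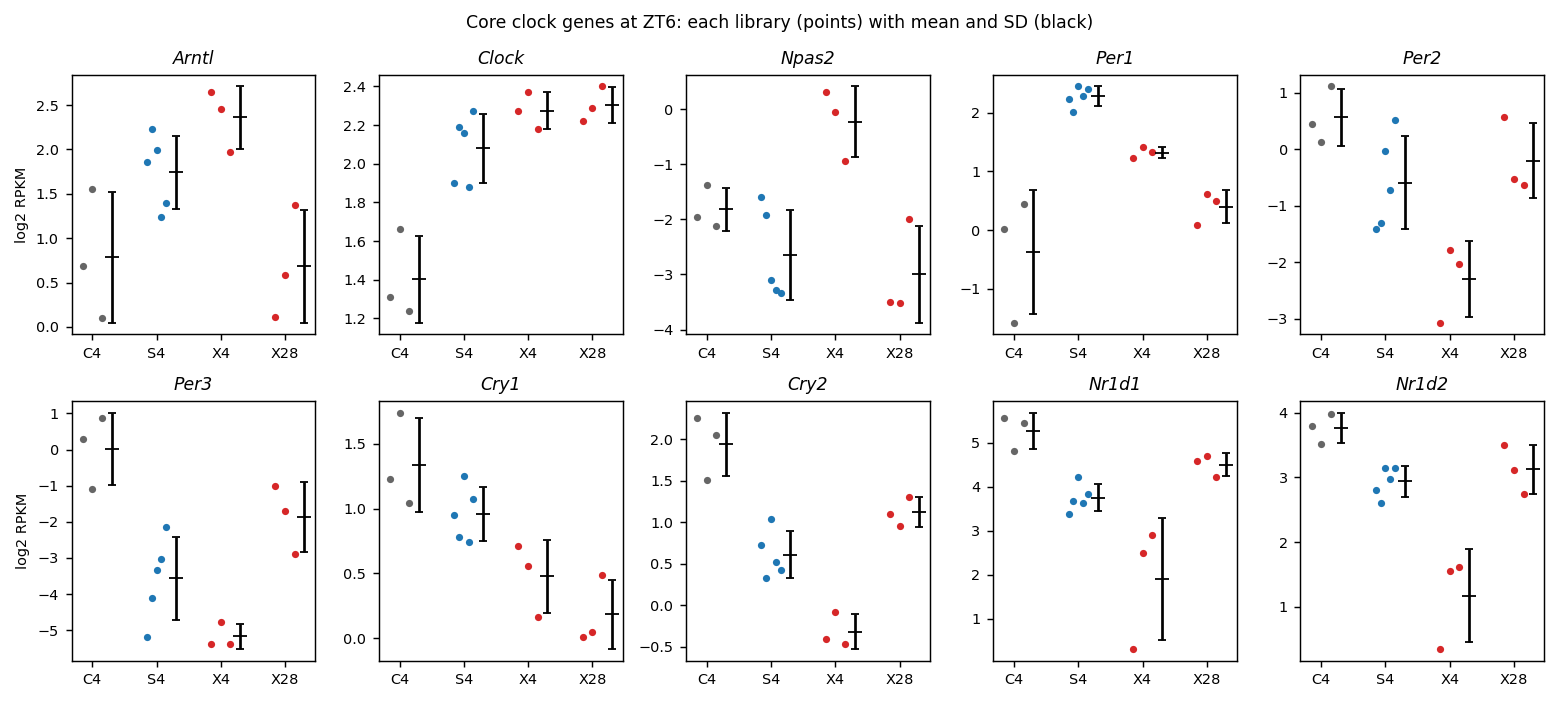
Levels of the 10 clock genes at ZT6 (log2 RPKM) in C4, S4, X4 and X28, with each library as a point and the mean with SD in black. X4 lies highest for Arntl and Npas2 and lowest for Per2, Per3, Cry2, Nr1d1 and Nr1d2, and the mean of X28 lies nearer to that of C4 than X4 does for each of these.

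The repressors of Arntl mirrored it at this hour. Nr1d1 was 5.56, 4.80 and 5.45 in C4, between 3.39 and 4.22 in S4, 0.32, 2.49 and 2.91 in X4 and 4.59, 4.70 and 4.22 in X28. No S4 or X4 liver reached the lowest C4 liver. Its log2 difference from C4 was −1.5 (SE 0.57, adjusted p = 0.0192) in S4, −3.25 (SE 0.63, adjusted p = 1.30e-05) in X4 and −0.76 in X28, with a 95% interval from −2.02 to 0.50. Nr1d2 was 3.80, 3.51 and 3.98 in C4 and 0.35, 1.56 and 1.61 in X4, a difference of −2.45 (SE 0.30, adjusted p = 4.36e-10), with S4 in between at 2.61 to 3.15. Taken as the difference between Nr1d1 and Arntl within a library, which needs no scaling between libraries, the values were 4.87, 3.24 and 5.36 log2 units in C4, 1.45 to 2.44 in S4, −2.33, 0.03 and 0.94 in X4 and 4.48, 4.12 and 2.85 in X28. The C4 and S4 livers did not overlap in this measure, nor did S4 and X4.

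Among the Per and Cry genes, Per1 was higher than in C4 at 4 h in both S4 and X4, while Per2, Per3 and Cry2 were lower in both. Per1 was 0.01, −1.58 and 0.44 in C4, 2.02 to 2.45 in S4, 1.22, 1.41 and 1.33 in X4 and 0.09, 0.61 and 0.50 in X28. It was higher than in C4 by 2.27 (SE 0.52, adjusted p = 0.000151) in S4 and by 1.38 (SE 0.58, adjusted p = 0.0373) in X4. The call in X4 was lost in 9 of 18 alternative settings, with 0.95 (adjusted p = 0.269) without replicate 2 and lost calls without replicates 1, 4, 5 or 6 as well, while that in S4 was lost in 1 of 18. Per2 was 0.45, 0.12 and 1.11 in C4, between −1.41 and 0.51 in S4 and −3.07, −1.79 and −2.04 in X4, so that every X4 liver lay below every S4 liver. The difference of X4 from C4 was −1.91 (SE 0.33, adjusted p = 1.37e-06). Per3 was 0.29, −1.08 and 0.86 in C4, −5.18 to −2.15 in S4 and −5.37, −4.77 and −5.37 in X4, and X28 was at −1.01, −1.69 and −2.90. Its differences from C4 were −1.89 (SE 0.18, adjusted p = 1.35e-13) in S4, −2.22 (SE 0.20, adjusted p = 1.84e-14) in X4 and −1.26 (SE 0.20, adjusted p = 8.06e-07) in X28. Cry2 fell from 2.25, 1.51 and 2.05 in C4 to between 0.33 and 1.04 in S4 and −0.40, −0.08 and −0.47 in X4, with log2 differences of −1.20 (SE 0.17, adjusted p = 1.05e-08) and −1.95 (SE 0.19, adjusted p = 1.22e-13). Cry1 was lower than in C4 in X4 (−0.76, SE 0.26, adjusted p = 0.00979) and in X28 (−1.0, SE 0.26, adjusted p = 0.00114), and its difference in S4 was not called. Without replicate 2 of all groups neither call of Cry1 was made, with −0.57 (adjusted p = 0.0955) in X4 and −0.76 (adjusted p = 0.0623) in X28, and that in X4 was also lost without replicate 6.

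In counts, 8 of the 10 clock genes were called in S4 against C4, where 43.3% of all genes were called. Of these 3 were higher (12.2% of all genes) and 5 lower (31% of all genes). All 10 were called in X4 against C4, where 45.6% of all genes were called, with 4 higher (11.7% of all genes) and 6 lower (33.9% of all genes). In X28 against C4 there were 4 (Clock higher and Per3, Cry1 and Cry2 lower), where 32.7% of all genes were called. Over all genes the median difference from C4 was −0.22 in S4 and −0.26 in X4, and with libraries scaled to the same median 6 clock genes were called in S4 and 9 in X4. Without replicate 1 or without replicate 3, 5 were called in S4. Nr1d1 in S4 was not called without replicate 1 (−1.27, adjusted p = 0.176), 2 (adjusted p = 0.0511) or 3 (adjusted p = 0.067), and Per2 not without replicate 1 or 3. The C4 livers were collected in another experimental period than the operated livers, and the period and the surgery cannot be told apart in these comparisons. When operated livers were set against C0 replicates 1 to 6 and C4 against C0 replicates 7 to 9, on the assumption that the last set shares the period of C4, the difference of these differences was called for 3 clock genes in S4 and 6 in X4, that of Nr1d1 in S4 turned to 0.39 (adjusted p = 0.704), that of Per1 was 1.35 (adjusted p = 0.124) in S4 and 0.46 (adjusted p = 0.666) in X4, and those of Clock to −0.30 in S4, −0.12 in X4 and −0.09 in X28.

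Comparisons among the operated groups do not involve C4. X4 against S4 tests liver resection beyond the operation itself, and 6 clock genes were called there, where 8.64% of all genes were called. Npas2 was higher in X4 by 1.40 (SE 0.24, adjusted p = 1.57e-05) and Arntl by 0.58 (SE 0.21, adjusted p = 0.048). Nr1d2 differed by −1.65 (SE 0.27, adjusted p = 9.08e-06), Nr1d1 by −1.75 (SE 0.57, adjusted p = 0.0261), Per2 by −1.02 (SE 0.29, adjusted p = 0.0112) and Cry2 by −0.75 (SE 0.17, adjusted p = 0.000833). Between the 2 hours of ZT6 after PH, X28 against X4, 7 were called, with Per2, Per3, Cry2, Nr1d1 and Nr1d2 higher and Arntl and Npas2 lower in X28, where 28.3% of all genes were called. X28 differed from S4 in 4, and in 1 without replicate 1 of both groups (23.9% of all genes called), namely Arntl (−0.94), Per1 (−1.70), Per3 (0.64) and Cry1 (−0.66). The study lists X28 RNA in a single experimental period, and X4 and S4 RNA in that period and another. It does not say from which period the X4 libraries used here came. In both comparisons with X28, the period may therefore differ along with the time after surgery. The X4 libraries are replicates 4 to 6, and against S4 replicates 1 to 3 alone the differences of Arntl (0.31) and Per2 (−0.79) were no longer called, while against S4 replicates 4 and 5 alone those of Cry2 (−0.63) and Nr1d1 (−1.73) were not. With a pseudocount of 1 the count in X4 against S4 was 3, and it was also 3 without replicate 4. Leaving out replicate numbers in turn, Arntl was not called without 1, 4 or 5, Per2 not without 4 or 5 and Nr1d1 not without 1, 2, 3 or 4.

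Other RNA also differed between C4 and the operated livers at ZT6. The C4 livers were collected in another experimental period, and the period and the surgery cannot be told apart here. The 6 hepatocyte markers summed to 51000 to 54500 RPKM in C4, 35800 to 48400 in S4, 37300 to 40200 in X4 and 28300 to 31300 in X28. The 4 stellate-cell markers summed to 9.24 to 9.56 RPKM in C4, 2.14 to 3.37 in S4, 2.28 to 4.08 in X4 and 5.78 to 8.27 in X28. The 4 endothelial markers summed to 10.6 to 11.8 in C4, 4.73 to 8.84 in S4, 6.21 to 6.49 in X4 and 7.17 to 8.57 in X28. No operated liver reached the lowest C4 liver in either sum. The 6 macrophage markers summed to 25.3 to 36.3 in C4, 10.1 to 26.4 in S4, 10.4 to 13.2 in X4 and 22.2 to 57.6 in X28, and the 2 T and B cell markers to 1.08 to 2.19 in C4, 0.113 to 0.531 in S4, 0.115 to 0.228 in X4 and 0.134 to 0.373 in X28. The 4 neutrophil markers summed to 0.855 to 4.36 RPKM in C4, 6.23 to 39.5 in S4, 4.07 to 8.44 in X4 and 2.12 to 3.42 in X28, with Ly6g listed at the lowest value of the table in at least 1 library of each group. The 3 cholangiocyte markers summed to 2.65 to 3.25 RPKM in C4, 2.33 to 3.66 in S4, 2.46 to 3.64 in X4 and 2.20 to 2.86 in X28. In whole liver, fewer cells of a type and less RNA per cell cannot be told apart, and the part of these shifts in the clock genes was not tested.

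At the other hours shared by PH and sham livers, most clock genes lay close to each other. At 1 h the clock gene called was Cry2, where 0.65% of all genes were called. Cry2 was 2.26, 2.60, 2.32, 2.08, 1.76 and 1.77 in X1 against 1.47, 1.28, 1.05, 1.71, 1.45 and 1.60 in S1, so that the lowest X1 liver lay above the highest S1 liver. The difference was 0.66 (SE 0.13, adjusted p = 0.00188), and it was 0.26 (adjusted p = 0.554) within replicates 4 to 6 alone and was not called without replicate 2 or without replicate 3. Per1 was 2.81 to 3.32 in X1 and 1.32 to 2.41 in S1, again with no overlap, but its difference of 0.94 (SE 0.41) did not pass (adjusted p = 0.434), nor in any of 19 alternative settings, where the lowest adjusted p was 0.0658, with the compared groups alone.

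Per3 was the clock gene that was lower after PH at both 10 and 20 h. At 10 h (ZT12) Per3 was 1.28, 1.22 and 1.33 in S10 and between −0.12 and 0.88 in the 6 X10 livers. At 20 h (ZT22) it was −1.03, −0.65 and −1.48 in S20 and between −3.14 and −1.83 in the 6 X20 livers. The groups did not overlap at either hour. The log2 difference was −0.72 (SE 0.17, adjusted p = 0.00326) at 10 h, where 7.02% of all genes were called, and −0.84 (SE 0.17, adjusted p = 0.000753) at 20 h, where 7.11% of all genes were called. The other 9 clock genes had differences from −0.49 to 0.32 at 10 h and from −0.67 to 0.76 at 20 h, and limma called none of them. At an unadjusted p below 0.05 there was none at 10 h and there were 3 at 20 h (Clock, Npas2 and Per2). Of the wider clock list described below, Dbp and Tef, which encode PAR bZIP factors, were also lower at 10 h, Dbp with −1.41 (adjusted p = 0.00208) and Tef with −0.69 (adjusted p = 0.0493). At 20 h Tef was lower with −0.86 (adjusted p = 0.0126), and Dbp was not called (−0.55, adjusted p = 0.279). Binding to the promoter of Per3 was not measured. With X10 replicates 1 to 3 or 4 to 6 alone Per3 differed by −0.71 and −0.73, and with the same sets of X20 by −0.87 and −0.80, all called. The call of Per3 at 10 h was lost with a pseudocount of 0.05 and that at 20 h with a pseudocount of 1. Per3 in X20 lay below the detection threshold in all 6 libraries.

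At 48 h (ZT2) Clock was the clock gene called between PH and sham, where 27.2% of all genes were called. Clock was 3.12, 3.09, 3.02, 3.13 and 3.19 in X48 and 2.43, 2.38 and 2.26 in S48, a difference of 0.73 (SE 0.17, adjusted p = 0.000304). The median of all genes was shifted by 0.27 in the same comparison, and with libraries scaled to the same median Clock differed by 0.25 (adjusted p = 0.197), while Cry1 (−0.77, adjusted p = 0.00524) and Cry2 (−0.86, adjusted p = 3.92e-05) were called lower. Between 44 and 20 h after PH, both at ZT22, Npas2 alone was called (16.1% of all genes called). Npas2 was −0.75, 0.12 and 0.49 in X44 and 0.29 to 1.13 in X20, so the groups overlapped, and the difference of −0.76 (SE 0.23, adjusted p = 0.00921) was −0.57 (adjusted p = 0.102) against X20 replicates 4 to 6 alone and was not called without replicate 1. Within X20 and X36 the replicate numbers again separated Per1. It was 0.89, 1.09 and −0.14 in X20 replicates 1 to 3 and 1.78, 1.88 and 2.10 in replicates 4 to 6, a difference of 1.17 (SE 0.32, adjusted p = 0.026), with 2.93% of all genes called. It was 1.13, 2.23 and 0.67 in X36 replicates 1 to 3 and 2.42, 3.00 and 2.79 in replicates 4 to 6, a difference of 1.30 (SE 0.32, adjusted p = 0.00489), with 8.35% of all genes called. In the same X36 replicates 4 to 6, all 6 macrophage markers and all 4 endothelial markers were called lower, with medians of −1.48 and −1.05 beside −0.07 over all genes, and their part in the difference of Per1 was not tested. No other clock gene was called by limma in either, and no other had an adjusted p below 0.209. Fitted on the libraries of the pair of sets alone, neither difference of Per1 was called.

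In livers killed at ZT2, Per1 fell into 2 ranges, up to −1.22 and from 0.46 log2 RPKM. It was 1.46, 1.85 and 0.92 in S48, 0.92 to 1.95 in X48 and 1.83, 0.46 and 1.11 in X72. It was −2.46, −1.47 and −3.39 in X1W, −3.36 and −2.16 in X4W and −1.23 and −1.22 in C4W. C0 held both, since replicates 4 to 6 lay in the upper range and the other 6 in the lower. Against all of C0, Per1 was higher by 1.72 (SE 0.47, adjusted p = 0.00737) in S48, by 1.70 (SE 0.40, adjusted p = 0.000167) in X48 and by 1.48 (SE 0.47, adjusted p = 0.00696) in X72. Against C0 replicates 4 to 6 alone the differences became −0.28 (adjusted p = 0.749), −0.30 (adjusted p = 0.499) and −0.52 (adjusted p = 0.297). Nr1d1 in S48 (0.12, 0.21 and 1.35) was lower than in all of C0 by a log2 difference of −1.41 (SE 0.52, adjusted p = 0.0478), which became 0.54 (adjusted p = 0.556) against replicates 4 to 6. Without replicate 1 or without replicate 2 of both groups, neither gene was called in S48.

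**Figure D4:**
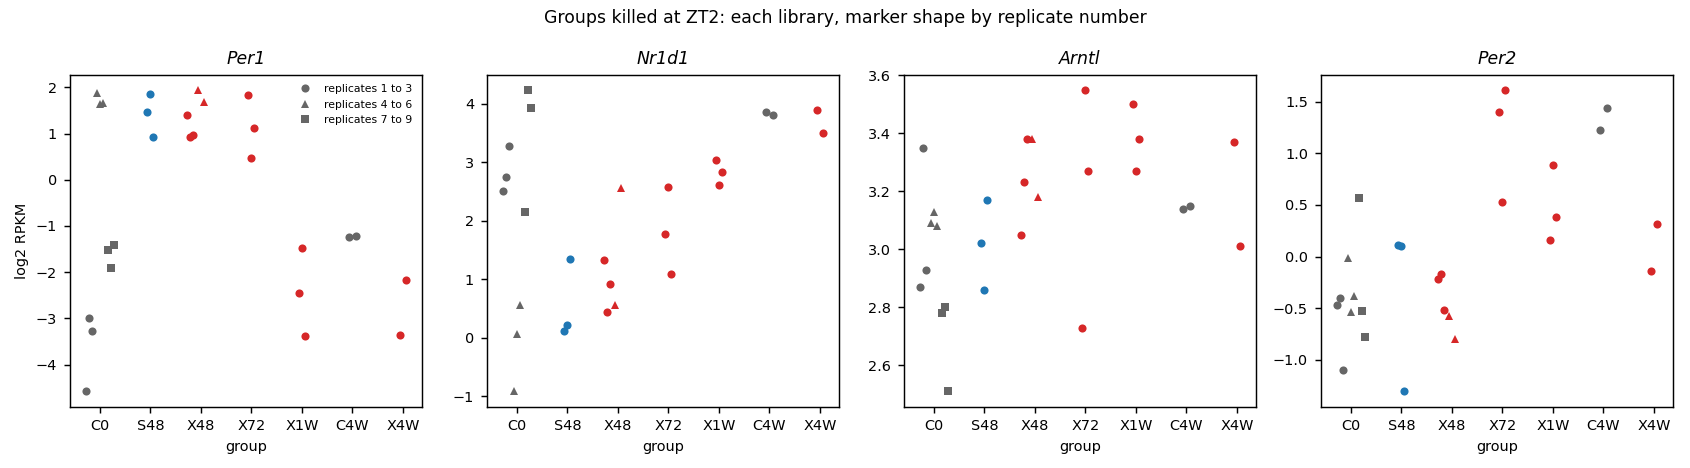
Per1, Nr1d1, Arntl and Per2 (log2 RPKM) in every library of the groups killed at ZT2, with marker shape by replicate number (circles 1 to 3, triangles 4 to 6, squares 7 to 9) and grey, blue and red for untreated, sham and PH livers. C0 spreads from −4.58 to 1.87 for Per1 in separate sets, and for Arntl it stays between 2.51 and 3.35.

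Of the other clock genes, Clock, Per2 and Cry2 were called at ZT2. Clock was higher than in C0 by 1.00 (SE 0.13, adjusted p = 5.82e-10) in X48, by 0.97 (SE 0.15, adjusted p = 2.97e-07) in X72 and by 0.63 (SE 0.15, adjusted p = 0.00111) in X1W, and the last was 0.32 (adjusted p = 0.0362), short of the size required, against C0 replicates 1 to 6. The median of all genes was shifted by 0.24 in X48, 0.21 in X72 and 0.12 in X1W, and with libraries scaled to the same median Clock differed by 0.52 in X48 and 0.59 in X72, and no clock gene was called in X1W. Per2 was 1.40, 0.53 and 1.62 in X72 and −1.10 to 0.57 in C0, a difference of 1.32 (SE 0.27, adjusted p = 3.11e-05), and it was higher by 0.70 (SE 0.27, adjusted p = 0.0365) in X1W. The call in X1W was lost in 9 of 21 alternative settings, with 0.57 (adjusted p = 0.163) against C0 replicates 7 to 9 alone and 0.52 (adjusted p = 0.214) without replicate 2, and also without replicates 1, 3 or 9. Cry2 differed by −0.56 (SE 0.13, adjusted p = 0.000116) in X48, which was −0.19 (adjusted p = 0.292) against C0 replicates 7 to 9 alone and −0.48, short of the size required, without replicate 2. In counts, 2 clock genes were called in S48 (8.88% of all genes), 3 in X48 (38.1%), 3 in X72 (33.2%) and 2 in X1W (16.9%). Arntl was not called in any of these against all of C0. Against C0 replicates 7 to 9 alone it was called higher in X48 (0.53, adjusted p = 0.0197) and X1W (0.66, adjusted p = 0.014), and not in S48 (0.31) or X72 (0.47). Against that set Clock was called in S48 too (0.89, adjusted p = 4.15e-07), and Nr1d1 was called lower in X48 (−2.15, adjusted p = 0.000249) and X72 (−1.55, adjusted p = 0.0185). In X4W against C4W, with 2 livers each, no clock gene was called by limma, where 0.065% of all genes were called. At an unadjusted p below 0.05 there was 1, Per2, with a difference of −1.08.

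Without surgery, C4 against C0 compares ZT6 with ZT2. The study lists C4 RNA in a single experimental period, and C0 RNA in that period and others. The hour and the period can therefore not be fully told apart against all of C0. Of the 10 clock genes 8 were called, where 7.89% of all genes were called. Arntl differed by −2.0 (SE 0.19, adjusted p = 3.46e-12), Npas2 by −1.99, Cry1 by −0.97 and Clock by −0.61, while Nr1d1 differed by 3.07 (SE 0.52, adjusted p = 4.75e-05), Nr1d2 by 2.00, Per3 by 1.81 and Per2 by 0.77. Per1 (0.26, adjusted p = 0.768) and Cry2 (0.46, short of the size required) were not called. Against C0 replicates 7 to 9 alone 5 were called, Clock differed by 0.00, and Nr1d1 (1.81, adjusted p = 0.081), Cry1 (−0.75, adjusted p = 0.106) and Per2 (0.64, adjusted p = 0.318) lost the call while Cry2 (0.83, adjusted p = 0.00357) gained it. Over the sets Nr1d1 ranged from 1.81 to 5.02 and Per1 from −1.74 (adjusted p = 0.000758, replicates 4 to 6) to 1.64 (adjusted p = 0.0128, replicates 1 to 3). Per2 lost the call in 11 of 21 alternative settings, leaving out replicate 1, 2, 3, 5 or 6 among them, and Clock did so without replicate 1, 2 or 3. Dbp, a direct output of the ARNTL and CLOCK pair, rose by 5.50 (adjusted p = 1.78e-22), the most of the listed genes.

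The wider clock list of 25 genes (nuclear receptors, kinases, ubiquitin ligases and output factors) had 23 genes tested. In S4 against C4, 1 was called higher and 7 lower, with a median log2 difference of −0.25 beside −0.22 over all genes. The 8 called are 34.8% of the list, below the 43.3% of all genes called. In X4 against C4, 1 was higher and 9 lower, with a median of −0.39 beside −0.26, and the share called was 43.5% beside 45.6% of all genes. Dbp differed by −4.48 in S4 (adjusted p = 4.09e-17) and by −5.62 in X4 (adjusted p = 2.45e-19), and Tef by −1.26 (adjusted p = 1.96e-05) and −3.16 (adjusted p = 8.47e-15). Nfil3, which competes with these factors at the D-box, was the gene that rose, by 1.88 in S4 (adjusted p = 4.37e-11) and 1.90 in X4 (adjusted p = 7.52e-10). In X28 against X4, Dbp was higher by 2.95 (adjusted p = 5.28e-09) and Tef by 2.30 (adjusted p = 1.32e-09), with 4 genes higher and 2 lower, a share of 26.1% beside 28.3% of all genes. The wider clock list was thus not called more often than all genes in S4 or X4 against C4, or in X28 against X4. It was called more often in other comparisons. Among these were C4 against C0 (26.1% beside 7.89% of all genes), X28 against S4 (43.5% beside 23.9%) and X10 against S10 (17.4% beside 7.02%). Of the 12 hormone and stress responsive genes, 6 were higher and none lower in S4 against C4 (12.2% of all genes higher), and 8 higher and none lower in X4 against C4 (11.7% of all genes higher). Fkbp5 led both, by 3.74 in S4 (adjusted p = 2.65e-08) and 3.75 in X4 (adjusted p = 3.32e-07), and it remained higher by 2.47 in X28 (adjusted p = 0.000635). Between untreated C0 replicates 4 to 6 and 7 to 9, Fkbp5 differed by 3.72. In all comparisons with C4, those of Dbp, Tef and Nfil3 included, the experimental period and the surgery cannot be told apart.

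The genes whose group means ran most like those of the clock genes were found by Pearson correlation over the 19 groups among 10509 protein-coding genes, as a description, since groups share the hour of the day and time after surgery. For Arntl they were Npas2 (r = 0.956), Asap2 (r = 0.944) and Ypel2 (r = 0.943). For Nr1d1 they were Nr1d2 (r = 0.798), Tenc1 (r = 0.775) and Eif2s3y (r = 0.729). For Per2 they were Cpeb1 (r = 0.913), Samd1 (r = 0.876) and L3mbtl3 (r = 0.871). Per1 had Coq10b (r = 0.936), Tsc22d2 (r = 0.885) and Fkbp5 (r = 0.874), and no clock gene came near it, with correlations to the other 9 between −0.45 and 0.20. Per3, added after its values were seen, had Tef (r = 0.941), Dbp (r = 0.916) and Slc5a6 (r = 0.885). Arntl correlated with Nr1d2 at −0.83, with Per3 at −0.84 and with Nr1d1 at −0.45, so that among its repressors the transcript of Nr1d2 ran more closely against it over these groups than that of Nr1d1.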

How the data were processed

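Poly(A) RNA of individual livers was prepared with a stranded kit and sequenced from single ends. Per the study's methods and the labels, the authors mapped reads with TopHat2 2.0.13 and Bowtie2 to mm9, counted them per Ensembl 67 gene with featureCounts, splitting reads with several positions, and deposited log2 RPKM values, without spike-in. Genes with no reads are listed at −14.29 (52.9% of values). Of 84 columns, 80 match 1 of the 87 labelled samples. The other 4, whose names mark them as further S4 libraries but which no label matches, were not used, and 7 samples (3 X4, the X60 group and 1 X4W) were not analysed here. Depth was estimated from the smallest steps of RPKM times exon length (GENCODE, same build).

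Genes above −1.5 log2 RPKM in at least 1 library (15396) were fitted, after adding 0.25 to RPKM and taking log2, by limma (version 3.58.1, under R version 4.3.3) as a single model of 19 groups with a trended prior and Benjamini-Hochberg adjustment. Rhythms were fitted with a cosine and a sine of 24 h. The scripts recovered known changes in simulated data. The naming rule took all 10 clock genes in every comparison, and those not called are mostly given as counts. From the wider lists at most 4 called genes per comparison, those with the largest differences, are named, and for Arntl, Nr1d1, Per1 and Per2 the 3 most alike genes. The clock genes, lists and tests were chosen with earlier results of these data known. Livers are separate mice, but the labels do not say which were killed together. Alternatives were pseudocount, filter, scaling, prior, replicate block, replicates left out, fits of the compared groups alone, C0 libraries added to the rhythms and sets of replicate numbers.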

Additional observations from a re-analysis of the deposited data

Results flagged for a closer look

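One library stood far from the others of its group among 80 combinations of clock gene and group with at least 4 libraries, of which chance flags about 1 in 20. Cry2 in X48 replicate 3 was at 1.13 log2 RPKM, with the next library at 0.78. The 24-h curves differed between the first and the second day after PH for Arntl (adjusted p = 0.00306), Clock (adjusted p = 7.56e-06), Per1 (adjusted p = 0.0459) and Nr1d1 (adjusted p = 0.0444), by limma's F test of the interaction of day with the curve. The fitted peak of Clock lay at ZT19.9 on the first day and at ZT23.3 on the second. Both days were sampled at partly unlike hours, which cannot be told apart from a change between them.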

How the results depend on the processing

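The 260 combinations of clock gene and comparison were recomputed in 4730 values under the alternatives. Of these 146 lost the call, 69 gained it and 12 turned direction with a call in the main fit or the alternative. The other 4503 kept their side of the threshold. Values called in neither fit are among them whatever their direction, and rhythm results were not checked for direction. Counts below are clock genes called. With a pseudocount of 0.05 they became 0 in X10 against S10 and 1 in S48 against C0. With a pseudocount of 1 they became 3 in X4 against S4, 2 in X28 against S4, 0 in X20 against S20, 1 in X1W against C0 and 1 for the rhythm of PH against sham. Without a filter on low values they became 1 in S48 and 1 in X1W against C0 and 2 for the rhythm between days. With libraries scaled to the same median they became 2 in X48 against S48, 2 in X44 against X20, 6 in X48, 5 in X72 and 0 in X1W against C0. In fits of the compared groups alone they became 5 in C4 against C0, 0 in X1 against S1, 0 in S48 and 1 in X1W against C0, and 0 between the sets of X36 and 0 between those of X20. With C0 libraries added the rhythm in PH livers had 8. Without X28 replicate 2 the rhythm between days had 2. The stricter filter and the prior without a trend changed no call.

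Against C0 replicates 7 to 9 alone, 5 were called in C4 and 5 in X72, and Clock in C4 came to 0.00. Against replicates 1 to 6 alone, 0 were called in S48 and 4 in X1W, and against replicates 1 to 3 alone, 5 in X72 and 1 in X1W. Against replicates 4 to 6 alone, 0 were called in S48, Per1 turned to −1.74 in C4, −0.28 in S48, −0.30 in X48 and −0.52 in X72, and Nr1d1 to 0.54 in S48, 1.06 in X48 and 1.66 in X72. By the difference of differences 3 were called in S4 and 6 in X4 against C4, Clock turned to −0.30 in S4, −0.12 in X4 and −0.09 in X28, and Nr1d1 to 0.39 in S4. Within replicates 1 to 3 of both groups X1 against S1 had 2, and within replicates 4 to 6 it had 0. X20 replicates 1 to 3 alone gave 2 against S20, and replicates 4 to 6 alone gave 0 for X44 against X20. The cause of these changes was not tested. The C0 sets 1 to 3 and 4 to 6 and the divisions of S1, X1, S4, X10, X20 and X36 were chosen after seeing the data.

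With the replicate number as a block, 1 was called in S48 and 5 in X72 against C0 and 2 for the rhythm between days, and Per1 in X4 differed from C4 by 0.48 (adjusted p = 0.467). Same-numbered livers do not pair, since their deviations correlated between −0.19 and 0.27 and in no comparison was every correlation above 0.1. Leaving out each replicate number in turn, the counts ranged from 5 to 8 in S4 against C4, 3 to 6 in X4 against S4, 1 to 4 in X28 against S4, 0 to 1 in X1 against S1, 1 to 2 in X20 against S20, 1 to 2 in X48 against S48, 0 to 1 in X44 against X20, 0 to 2 in S48 and 1 to 2 in X1W against C0, 0 to 1 between the sets of X36, 0 to 1 between those of X20 and 2 to 4 for the rhythm between days. Depth limits Per3 and Npas2, which lay under the detection threshold in many libraries.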
